A study of Arabidopsis thaliana with 12 samples.

Results

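NTRC (AT2G41680), the NADPH-dependent thioredoxin reductase C of plastids, was the 1 gene found when the array was searched by name for thioredoxins, peroxiredoxins, glutaredoxins and methionine sulfoxide reductases. Members were to be probes annotated to exactly 1 gene whose description names a thioredoxin, peroxiredoxin, glutaredoxin or methionine sulfoxide reductase. Neither annotation table holds a description column, so the symbols and synonyms of the RefSeq gene table were searched, and 1 of the 691 genes on a probe annotated to 1 gene matched, on an array of 3437 probes with values. Genes whose listed names do not use these words could not be found in this way, so the search does not show that no other family member is on the array. A further 5 probes carried a thioredoxin or glutaredoxin gene together with other genes, and they are not named.

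The study compared total RNA of Arabidopsis thaliana, ecotype Columbia 0, between 6 samples titled stn7 and 6 titled WT, each on a 1-channel array. The stn7 mutant lacks the thylakoid kinase of state transitions, the short-term rebalancing of excitation energy between both photosystems. The labels give no age, tissue, light treatment or allele, and 5 of the 6 samples titled stn7 carry the source name of the WT. Samples were grouped by title, and no probe annotated to STN7 alone was there to check the titles. Of 9 green-tissue markers 4 had a probe annotated to 1 gene, while none of the root, seed, senescence and flower markers did, so other tissues were not checked for.

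Thioredoxins are small proteins that reduce disulfide bonds of their targets. In chloroplasts they switch enzymes with the light and receive electrons from photosystem I through ferredoxin and ferredoxin-thioredoxin reductase. NTRC joins a reductase and a thioredoxin domain in 1 protein and draws on NADPH, which is also made in the dark. It is known as the main reductant of 2-Cys peroxiredoxins, which remove hydrogen peroxide, and also acts on enzymes of starch and chlorophyll synthesis.

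NTRC transcript did not pass the test between stn7 and WT, and the SD within each group was larger than the difference between the groups. In normalized intensity, a relative unit without dimension, WT samples 1 to 6 gave 0.329, 0.361, 0.346, 0.368, 0.539 and 0.545. The stn7 samples 1 to 6 gave 0.401, 0.489, 0.351, 0.419, 0.647 and 0.707. Samples 5 and 6 were the highest of each group, the groups overlapped, and stn7 sample 3 lay below 4 of the 6 WT samples. The deposited intensities, before normalization between arrays, ran from 0.298 to 0.467 in WT (median 0.362) and from 0.393 to 0.769 in stn7 (median 0.476). No NTRC value lay at the floor set for dim probes.

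Samples 1 and 2, 3 and 4, and 5 and 6 of a group deviated together from the group mean over all features, and each couple was averaged and counted as 1 replicate. Nothing in the labels tells separate plants from repeat arrays of 1 extract, so the spread behind each p-value may be technical. The averaged NTRC level was 0.345, 0.357 and 0.542 in the WT replicates 1, 2 and 3, and 0.442, 0.383 and 0.676 in the stn7 replicates. The mean on the log2 scale was -1.30 ± 0.36 (SD, n = 3) in WT and -1.04 ± 0.43 (SD, n = 3) in stn7. Replicate 3 of the WT was higher than replicates 1 and 2 of stn7, so these averages overlapped too, whereas 38.7% of all 3248 features had groups that did not overlap.

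The stn7 minus WT difference of NTRC was 0.26 on the log2 scale (SE 0.27, limma, adjusted p = 0.546), a ratio of 1.20. Its 95% interval ran from -0.36 to 0.89, or from a ratio of 0.778 to 1.85, so the data allow a fall as well as a rise of NTRC. Across the array 15.2% of features were called at an adjusted p of 0.05 and 32.4% had an unadjusted p under 0.05. NTRC was in neither group, with an unadjusted limma p of 0.360. An exact two-sided permutation test over the 6 averaged replicates gave p = 0.5, where the smallest p this design allows is 0.1. By size of the difference in either direction NTRC ranked 1887 of 3248 features, against a median of 0.05 log2 for the signed differences of the whole array.

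The NTRC probe gave a mean signal above that of 57.1% of the features, rank 1393 of 3248, and rank 255 among the 650 tested features annotated to 1 gene. Signals of different probes depend on the probe as well as on the transcript, so these ranks place the probe and not the transcript.

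**Figure D1:**
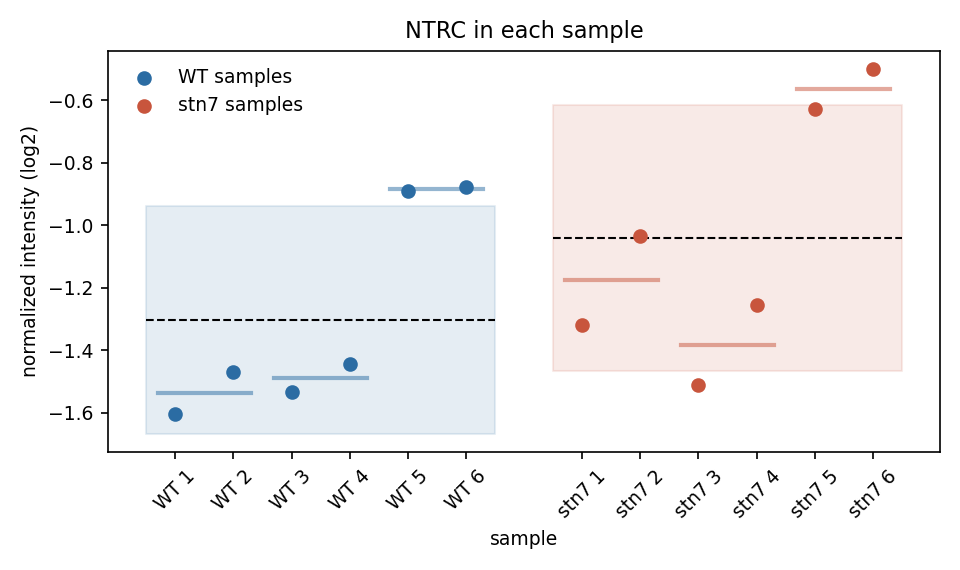
Normalized NTRC intensity (log2, y axis) in each of the 12 samples (x axis), with points for samples, short bars for the averages of samples 1 and 2, 3 and 4, and 5 and 6, dashed lines for the group means and shading for 1 SD of the 3 averages. Samples 5 and 6 are the highest of both groups, and the shaded ranges overlap.

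Samples 5 and 6, averaged as replicate 3, stood highest for NTRC in both groups. Replicate 3 exceeded the mean of replicates 1 and 2 by 0.63 log2 in WT and by 0.72 log2 in stn7, which is 1.55-fold and 1.64-fold. Both steps were larger than the difference between the groups. Replicate 3 was the highest in both groups for 18.4% of the features, and 1.11% of them had steps at least as large as those of NTRC in both groups. The SD of NTRC over the averaged replicates was above that of 83.4% of the features in WT and of 85.6% in stn7. Within a couple the samples differed by 0.014 to 0.14 log2 in WT and by 0.13 to 0.29 log2 in stn7. What distinguished samples 5 and 6 is not given in the labels, and its part in the NTRC values was not tested.

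Set side by side by their number, the averaged stn7 replicates were above those of the WT in all 3 cases, by 0.36, 0.10 and 0.32 log2. The labels do not say whether samples of the same number are paired, and the main fit did not pair them. Averaged replicates of the same number correlated at 0.171, 0.120 and 0.0901, all positive. For samples 1, 2, 4, 5 and 6 the highest correlation outside the couple was the same in WT and stn7 (0.0963 to 0.170). For sample 3 it was 0.146 in WT and 0.139 in stn7. Whether the numbers mark pairs was not tested. With the numbers fitted as a block on the averaged replicates, the SE of NTRC was 0.13 log2 in place of 0.27 (limma, adjusted p = 0.227). The difference of 0.26 log2 was 0.14, 0.17 and 0.47 without WT replicate 1, 2 or 3, and 0.33, 0.43 and 0.02 without stn7 replicate 1, 2 or 3. With replicate 3 left out of both groups it was 0.23 log2 (SE 0.12, limma, adjusted p = 0.255). The sample titled stn7 whose source name also says mutant, sample 1, differed from the WT samples by -0.02 log2. That value rests on 1 stn7 sample, without a spread within stn7, and is given as a size only.

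Differences on this array followed the probe number, in sets of probes that recur along a cycle of 288 numbers. NTRC shared its set with 63 other probes, and 48 of the 64 were lower in stn7, with a set median of -0.20 log2. NTRC, at 0.26 log2, had the ninth highest difference of that set. With each sample centred within the sets, NTRC differed by 0.47 log2 (SE 0.24, limma, adjusted p = 0.267). It was not called there either, where 5.67% of features were.

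A list of 37 plastid genes beside NTRC held proteins known or proposed as thioredoxin-regulated. It was drawn up with earlier results of these data known, and 3 of its genes had a probe annotated to 1 gene. None of the 3 was called, where 15.2% of all features were, and 1, CHLM, had an unadjusted p under 0.05, a share close to the 32.4% over all features. The 3 differences were -0.30 log2 (PRK), 0.38 log2 (SBPASE) and 0.46 log2 (CHLM), where the median over all features was 0.05 log2. SBPASE and CHLM shared a probe-number set, whose median was -0.16 log2. SBPASE, the sedoheptulose-bisphosphatase of the Calvin cycle, which thioredoxin activates in the light, is described with the patterns below.

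PRK, the phosphoribulokinase of the Calvin cycle and a further light-activated thioredoxin target, had normalized intensities from 1.00 to 1.70 in WT (median 1.26) and from 0.878 to 1.39 in stn7 (median 1.02). Its groups overlapped. The difference was -0.30 log2 (SE 0.19, limma, adjusted p = 0.302), opposite in sign to those of NTRC and SBPASE, and it was 0.15 log2 after set centring, so its direction depended on the processing.

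CHLM, the magnesium-protoporphyrin methyltransferase of chlorophyll synthesis, had normalized intensities from 0.456 to 0.599 in WT (median 0.499) and from 0.498 to 0.999 in stn7 (median 0.705). In single samples the groups overlapped through stn7 sample 1, while the averaged replicates did not overlap, as was so for 38.7% of all 3248 features. The difference was 0.46 log2 (SE 0.19, limma, adjusted p = 0.140; unadjusted p = 0.0438). CHLM was called with even-numbered samples alone (0.62 log2, limma, adjusted p = 0.0401), but not with odd-numbered samples (0.30 log2, adjusted p = 0.502). It was also called with 12 separate samples (limma, adjusted p = 0.0239, and 0.0206 with the replicate block). These fits count the samples of a couple as separate and called 1283 and 1442 of 3248 features. CHLM was not called after set centring (0.63 log2, adjusted p = 0.0773) or with the block on averaged replicates (adjusted p = 0.110). Between stn7 sample 1 alone and the WT its difference was -0.04 log2.

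A wider list of redox genes, found by words such as ferredoxin, superoxide dismutase and glutathione, held 1 gene, CCS, the copper chaperone of superoxide dismutase. These words too were searched in symbols and synonyms only, so redox genes without them in their listed names were not found. CCS gave between 0.161 and 0.188 in WT (median 0.175) and between 0.107 and 0.168 in stn7 (median 0.130). Only stn7 sample 3 reached into the WT range. The difference was -0.42 log2 (SE 0.15, limma, adjusted p = 0.0971; unadjusted p = 0.0238), and -0.24 log2 (adjusted p = 0.390) after set centring. CCS was called with 12 separate samples (limma, adjusted p = 0.00553, and 0.0108 with the replicate block). Both fits count the samples of a couple as separate, and they called 1283 and 1442 of 3248 features. With the block on averaged replicates CCS was not called (limma, adjusted p = 0.0950). In stn7 sample 1 alone against the WT its difference was -0.49 log2. Its probe was among the dimmest 25%, and the difference was -0.18 log2 with the floor at the 20th percentile and -0.24 log2 in the values as deposited.

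SRX, the sulfiredoxin that restores over-oxidized 2-Cys peroxiredoxins, was in neither list and was chosen after its annotation and values had been seen. Its normalized intensity ran from 0.163 to 0.231 in WT (median 0.184) and from 0.107 to 0.301 in stn7 (median 0.196). The stn7 range enclosed that of the WT. The difference was 0.05 log2 (SE 0.23, limma, adjusted p = 0.907) and turned negative in 5 of the alternatives.

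**Figure D2:**
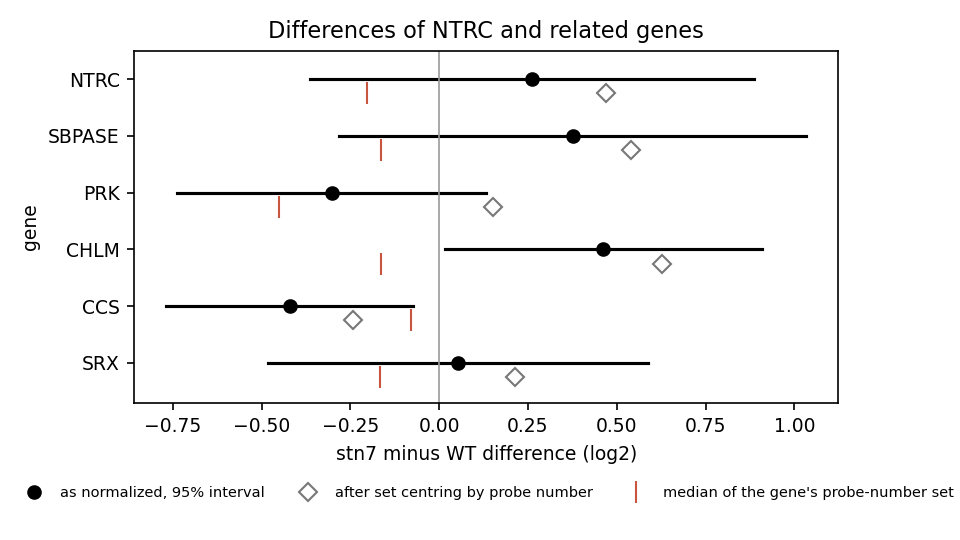
Difference between stn7 and WT (log2, x axis) of NTRC and 5 related genes (y axis), with circles and bars for the limma estimate and its 95% interval, diamonds for the estimate after set centring and ticks for the median difference of the gene's probe-number set. The interval of NTRC spans 0, from -0.36 to 0.89, and for all 6 genes the set median is below 0.

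The 5 unnamed probes that carry a thioredoxin or glutaredoxin gene with other genes differed by -0.56 to 0.25 log2. None was called or had an unadjusted p under 0.05 (limma, smallest adjusted p = 0.186), against 15.2% and 32.4% of all features, and so few probes do not set them apart.

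The named features whose pattern over the 12 samples was most like that of NTRC were AT1G62010, SBPASE and AT4G26770, with Pearson correlations of 0.960, 0.952 and 0.917. The median correlation of NTRC with the 649 features compared was 0.035, and 6 of them were above 0.9. These 12 samples share couples and groups, so the correlations are a description. None of the 3 probes shared the probe-number set of NTRC, and after set centring the correlations were 0.956, 0.957 and 0.897.

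The likeness was mostly one within the groups. As deviations from the group means the correlations were 0.953, 0.947 and 0.916. SBPASE gave 0.541, 0.610, 0.519, 0.633, 1.08 and 0.800 in WT samples 1 to 6 and 0.614, 0.941, 0.658, 0.759, 1.20 and 1.29 in stn7 samples 1 to 6. As in NTRC, samples 5 and 6 were the highest of each group, and stn7 sample 2 was the third highest of the stn7 samples.

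Without samples 5 and 6 of both groups, the correlation of NTRC with SBPASE over the remaining 8 samples was 0.912, while it was 0.717 for AT1G62010 and 0.745 for AT4G26770. SBPASE differed between stn7 and WT by 0.38 log2 (SE 0.28, limma, adjusted p = 0.402). The differences of AT1G62010 (0.22 log2, SE 0.23) and AT4G26770 (0.35 log2, SE 0.24) were not called either. With 12 separate samples and the replicate block NTRC (adjusted p = 0.0302), SBPASE (0.0179), AT1G62010 (0.0366) and AT4G26770 (0.0142) were all called, in a fit that called 1442 features.

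**Figure D3:**
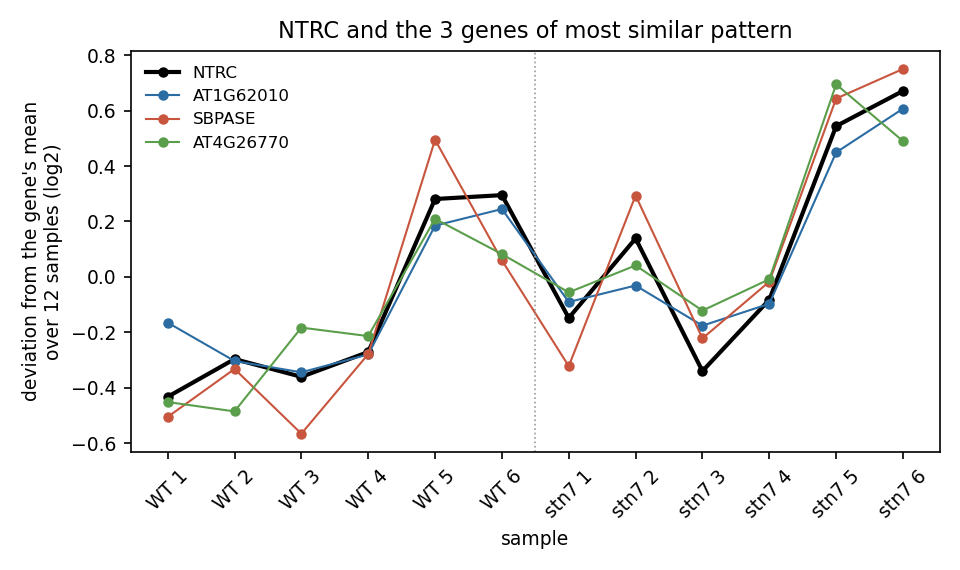
Deviation of normalized intensity from the gene's own mean over the 12 samples (log2, y axis) for NTRC, AT1G62010, SBPASE and AT4G26770 in each sample (x axis), where lines join the points of a gene and mark no order. In all 4 genes samples 5 and 6 are the highest of both groups.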

How the data were processed

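The authors deposited intensities of 12 arrays on a linear scale with column means between 1.01 and 1.07, and how they corrected background and scaled is not given in the sources used here. Between 4.66% and 6.58% of a column's values were 0, and column medians differed by up to 0.478 log2. Arrays were quantile-normalized, values under the 10th percentile (0.0702) were raised to that floor, log2 was taken, and 188 probes never above the floor were dropped. Probes of a locus were averaged, which left 3248 features. Samples 1 and 2, 3 and 4, and 5 and 6 were averaged because each sample's deviations correlated best with its partner's (0.188 to 0.632, against at most 0.170 with others). The test was limma 3.58.1 (lmFit, then eBayes; R 4.3.3), two-sided, with Benjamini-Hochberg adjustment over all features and calls under 0.05.

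The member, the gene lists, the averaging and the sets (6 neighbouring numbers on a cycle of 288 from 800 lags scanned) were chosen with earlier results of these data known. NTRC was named as the member, list genes as called or among the 3 smallest p of a list, and the 3 single-gene features most correlated with NTRC. Of the 692 probes with 1 gene, 690 were found in the RefSeq table of TAIR10.1, 869 probes had several genes and 1876 no entry. Simulated data for stn7 against WT had 3248 features, 10 draws and 200 features changed. The share recovered was 17.6% at 1.5-fold, 63.4% at 2-fold and 86.5% at 3-fold and 4.54% of calls were false. The data themselves gave 494 calls. The shares hold for the changed features together and are no rate for NTRC, whose SD was above that of 83.4% of features in WT and 85.6% in stn7. Plots used matplotlib 3.10.9 (Python 3.11.15). Alternatives covered scaling, floor, dim features, variance model, averaging, the replicate block, probe-number sets, samples left out and the source name.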

Additional observations from a re-analysis of the deposited data

How the results depend on the processing

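NTRC was called in 1 of 15 alternatives other than leaving samples out: the replicate block on 12 separate samples (0.26 log2, adjusted p = 0.0302), where 1442 features were called and 1 member counted. There SBPASE, CHLM, CCS, AT1G62010 and AT4G26770 were called too, of which SBPASE, AT1G62010 and AT4G26770 are the genes chosen for their likeness to NTRC. With the replicate block on averaged replicates NTRC was not called (0.26 log2, adjusted p = 0.227, 407 features), nor with block and set centring (0.47 log2, adjusted p = 0.119, 117 features). Same-number averages correlated at 0.171, 0.120 and 0.0901, all positive but not all above 0.1, so the main fit left them unpaired. Scaling moved NTRC between 0.22 log2 (cyclic loess) and 0.46 log2 (values as deposited), where the median of all features was 0.19 log2. Leaving out 1 sample gave 0.21 to 0.31 log2, and leaving out 1 averaged replicate gave 0.02 to 0.47 log2, with no call. Leaving out the same replicate number in both groups, an alternative added after seeing the data, gave 0.21 to 0.34 log2. Against 494 features called, 1283 were called with 12 separate samples, 308 with even-numbered samples and 184 after set centring. Leaving out 1 sample or averaged replicate gave 4 (without stn7 replicate 1) to 493, and leaving out replicate 1, 2 or 3 of both groups gave 0, 0 and 197 (limma; 641, 670 and 1158 at an unadjusted p under 0.05). The causes were not tested. NTRC (-0.017 log2), SBPASE (-0.13) and CHLM (-0.041) turned negative against WT in the stn7 sample whose source name gives the mutant, assuming this lone sample varies like the WT. PRK turned positive after set centring, without and with the replicate block (0.15 log2). SRX turned negative with even-numbered samples (-0.039 log2), without stn7 sample 2 (-0.021) or 3 (-0.091), without averaged stn7 replicate 1 (-0.16), and without replicate 1 of both groups (-0.075). No background correction or batch alternative was run, as the table holds no such columns.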
